A study of Homo sapiens with 6 samples.

Results

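The genes described here encode secreted growth factors that bind heparin and heparan sulfate (VEGFA, PDGFA, PDGFB and MDK), the FGF carrier protein FGFBP1, and receptor tyrosine kinases whose signalling such sugars assist (FGFR1, FGFR2, FGFR3, FGFR4 and MET). These 10 genes were picked by symbol from the 59962 genes of the deposited table, with earlier results of these data known. All 10 of them had a TPM (a transcript level scaled by length and by the library's total) of at least 1 in at least 2 libraries, the filter that left 16610 genes for testing. RNA-seq of total RNA was made from CFPAC-1, an established human line from a pancreatic cancer, in 3 groups of 2 libraries each. The groups were cells with guide RNA sgRNA1 against SULF2, cells with guide RNA sgRNA3 against SULF2, and control cells with a guide against LACZ, a bacterial gene. The labels call all 3 groups knockdowns and name no other treatment. The sources used here do not say how the guides act on SULF2, whether a line was 1 clone, or whether the libraries of a group were separate cultures.

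SULF2, a secreted sulfatase, strips 6-O-sulfates off heparan sulfate chains at the cell surface and in the matrix. FGFs signal through complexes in which heparan sulfate holds ligand and FGF receptor together, and FGFBP1 releases FGFs stored on these chains. The longer VEGFA and PDGF proteins and midkine, the product of MDK, are held by the same chains, and MET is the receptor of HGF, another heparin-binding factor. In pancreatic ductal tumours these factors act both on the tumour cells and on vessels and fibroblasts nearby.

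The start sites of 6 of the genes were found in RefSeq's promoter table for GRCh38.p14, which gives 250 bases before and 50 bases after each start. The windows of FGFBP1, whose transcript rose with sgRNA3, and of MET, which passed in no comparison, are shown because they are unlike in composition. Capitals mark matches, on either strand, to the GC box (GGGCGG) and to the core of the hypoxia response element (ACGTG).
FGFBP1, chr4:15938691-15938990, minus strand: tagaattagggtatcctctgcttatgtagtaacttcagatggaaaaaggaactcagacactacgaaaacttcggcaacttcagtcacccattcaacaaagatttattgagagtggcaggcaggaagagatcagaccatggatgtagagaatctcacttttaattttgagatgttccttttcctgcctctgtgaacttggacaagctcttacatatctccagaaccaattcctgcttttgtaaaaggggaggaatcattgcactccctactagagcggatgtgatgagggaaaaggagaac
MET, chr7:116671946-116672245, plus strand: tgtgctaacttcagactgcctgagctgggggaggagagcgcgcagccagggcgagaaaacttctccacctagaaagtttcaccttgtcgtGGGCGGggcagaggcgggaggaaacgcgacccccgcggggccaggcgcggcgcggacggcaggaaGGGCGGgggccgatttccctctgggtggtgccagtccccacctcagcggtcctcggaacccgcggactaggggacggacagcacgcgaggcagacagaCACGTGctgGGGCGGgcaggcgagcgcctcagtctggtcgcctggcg
G and C made up 42.0% of the FGFBP1 window and 69.3% of the MET window, against a median of 58.7% over 35116 promoters of the table. The MET window held 3 GC boxes and 2 overlapping copies of ACGTG, 1 on each strand, which together spell a palindrome. A GC box was present in 45.0% of all promoters and ACGTG in 21.4%. The FGFBP1 window held neither, nor the AP-1 motif TGANTCA (in 7.71% of promoters), the CARE motif TGATGNAA (3.62%), the TATA box TATAAA (11.5%), the cAMP response element TGACGTCA (1.85%) or the interferon-stimulated response element (3.57%). The GC-richest window among the 14 of the 6 genes belonged to FGFR3, at 86.3%, with 8 GC boxes. VEGFA, PDGFB and MDK had no entry. FGFR1 was left out of the search, so whether the promoter table lists it was not tested.

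The libraries were alike in general measures. Between 15563 and 15923 genes reached a TPM of 1, transcripts of the mitochondrial genome made up 10.3% to 11.2% of each library, and replicates correlated across genes, which are not independent, at 0.959 to 0.964. SULF2 (ENSG00000196562) had 8.98 and 12.81 TPM with sgRNA1 and 10.07 and 9.24 TPM with sgRNA3, against 25.69 and 22.52 TPM in LACZ cells (limma adjusted p = 0.0338 and 0.0215 against LACZ). The sgRNA1 call of SULF2 was lost without any 1 library other than sgRNA1 replicate 2 (limma adjusted p up to 0.159), and its sgRNA3 call without any 1 of the LACZ and sgRNA3 libraries (limma adjusted p up to 0.106), with all 4 guide libraries below both LACZ libraries. Of 10 ductal epithelial markers, 9 reached a TPM of 1 in every library, with sums of 8054 to 8238 TPM with sgRNA1, 8671 to 8720 TPM with sgRNA3 and 9095 to 9267 TPM in LACZ cells. Of these 9, 4 were lower with sgRNA1 and 3 with sgRNA3 at a limma adjusted p under 0.05, and none was higher. KRT18, KRT19 and SOX9 were lower with both guides. Over all tested genes, 4.31% were lower with sgRNA1, 5.25% with sgRNA3 and 2.90% with both. The chloride channel gene CFTR stayed between 0.07 and 0.38 TPM in all 6 libraries. The 9 fibroblast markers summed to 58.6 and 60.8 TPM with sgRNA1, 37.7 and 41.8 TPM with sgRNA3 and 77.5 and 78.5 TPM in LACZ cells, nearly all from COL1A1, while COL3A1 and DCN were at most 0.11 TPM and THY1 was listed at 0 in every library. COL1A1 was lower with both guides at a limma adjusted p under 0.05, the only 1 of 3 tested fibroblast markers. The 8 endothelial markers summed to at most 6.10 TPM and the 7 acinar and islet markers to at most 1.48 TPM. The 7 leukocyte markers summed to 102.83 and 96.02 TPM with sgRNA1 and 110.08 and 112.25 TPM with sgRNA3, against 92.64 and 94.45 TPM in LACZ cells, nearly all from CD68, a lysosomal protein that other cells also make. CD68 was higher with sgRNA3, at 104.69 and 107.43 TPM, against 87.73 and 86.39 TPM in LACZ cells (log2 change 0.28, limma adjusted p = 0.0416), while PTPRC, the pan-leukocyte marker, reached at most 0.10 TPM in any library and CD3E and CD79A were listed at 0 in all libraries but sgRNA3 replicate 1. The part of these marker differences in the results for the 10 genes was not tested.

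On the TPM scale, which is per transcript length, the order of the 10 genes differed between the guide cells and the control. MDK stood first with sgRNA1 and with sgRNA3, at 442 ± 5.11 and 328 ± 5.97 TPM (SD, n = 2 each), while VEGFA stood first in LACZ cells at 639 ± 20.0 TPM. VEGFA was next in the guide cells and MDK next in LACZ cells. MET, FGFBP1 and FGFR1 followed in that order in all 3 groups, and FGFR2, PDGFA and FGFR3 closed the order in all 3 groups. PDGFB and FGFR4 overlapped with sgRNA1, PDGFB lay below FGFR4 with sgRNA3, and PDGFB overlapped FGFR1 in LACZ cells. The other neighbours in each order were apart in both libraries of the group. The 5 secreted products together came to 827 ± 27.9 TPM with sgRNA1, 768 ± 0.969 TPM with sgRNA3 and 1142 ± 21.9 TPM in LACZ cells.

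**Figure D1:**
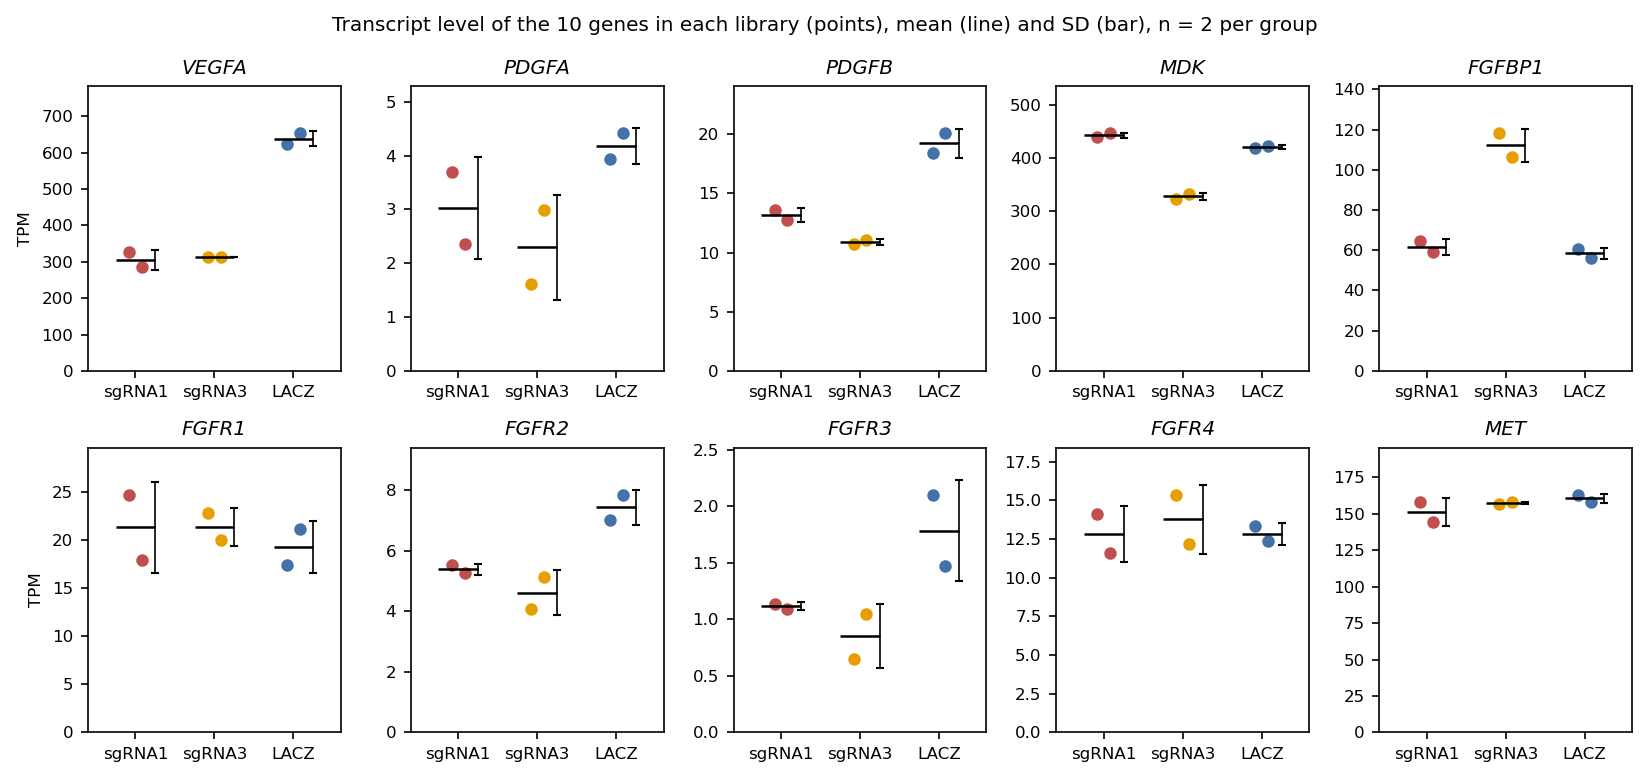
Transcript level in TPM (vertical axes, linear from 0) of each of the 10 genes in the libraries of sgRNA1, sgRNA3 and LACZ cells; points are libraries, lines are means and bars are SD (n = 2). VEGFA lies between 286.86 and 325.75 TPM in the guide libraries, below both LACZ libraries, and FGFBP1 is above 100 TPM in the sgRNA3 libraries alone.

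Compared with LACZ cells, 2 of the 10 genes passed with sgRNA1, VEGFA and PDGFB, both lower, when 6.0% of all tested genes passed and 4.31% passed as lower. With sgRNA3, 4 of the 10 passed, when 9.08% of all tested genes did: VEGFA, PDGFB and MDK were lower, as were 5.25% of tested genes, and FGFBP1 was higher, as were 3.84%. A gene passed when its limma p, adjusted by Benjamini-Hochberg over all 16610 genes, was under 0.05. The 10 genes were chosen with earlier results of these data known. Their counts and medians, set beside all tested genes, are thus not independent evidence. Both comparisons use the same LACZ libraries, and VEGFA and PDGFB passed in both. Of all tested genes, 4.05% passed in both in the same direction, 2.90% as lower and 1.15% as higher. Between the guides, MDK was lower and FGFBP1 higher with sgRNA3, when 0.578% of all tested genes differed, 0.187% as lower and 0.391% as higher. The median log2 change of the 10 genes was -0.23 with sgRNA1 and -0.47 with sgRNA3, against -0.07 and -0.05 over all tested genes. In 6 of the 10 genes (VEGFA, PDGFA, PDGFB, FGFR2, FGFR3 and MET) all 4 guide libraries lay below both LACZ libraries, which 23.4% of tested genes did. In none did all 4 lie above, which 13.2% of tested genes did. The libraries did not overlap in 7 of the 10 genes between sgRNA1 and LACZ, in 8 between sgRNA3 and LACZ and in 5 between sgRNA3 and sgRNA1, when 55.0%, 59.1% and 47.0% of all tested genes did not. Log2 changes throughout are differences in log2(TPM + 1), which understate the change of low genes, and p-values measure the spread between libraries, which may be technical. In bulk RNA a lower level can come from fewer cells that make a transcript or from less transcript per cell, and these cannot be told apart.

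**Figure D2:**
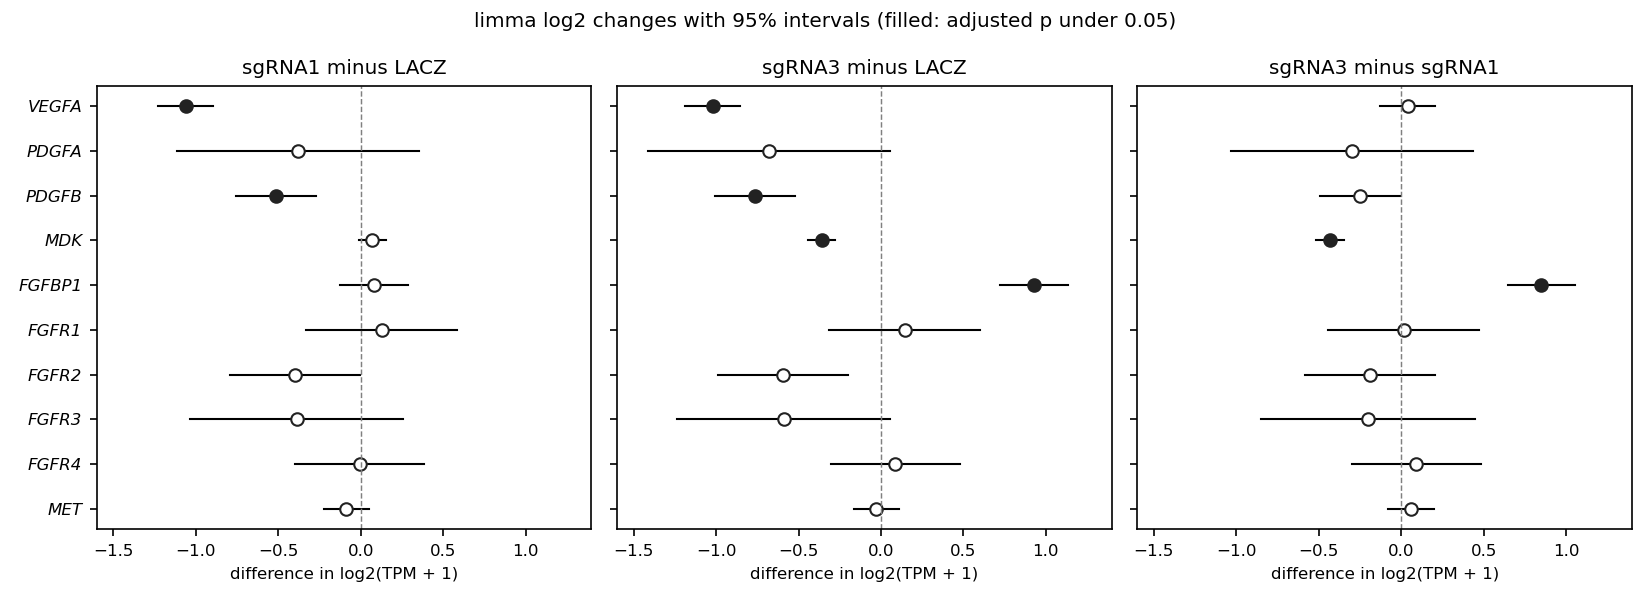
Difference in log2(TPM + 1) for each of the 10 genes in sgRNA1 minus LACZ, sgRNA3 minus LACZ and sgRNA3 minus sgRNA1, from limma; bars are 95% intervals and filled points have an adjusted p under 0.05. VEGFA is near -1 with both guides, and FGFBP1 is 0.93 with sgRNA3 and 0.08 with sgRNA1.

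VEGFA (ENSG00000112715, chromosome 6, 43770184 to 43786487, plus strand, GRCh38), the main stimulus of blood vessel growth, fell with both guides. It had 325.75 and 286.86 TPM with sgRNA1 and 314.48 and 314.58 TPM with sgRNA3, against 624.82 and 653.05 TPM in LACZ cells. The 4 guide libraries lay close together and below the control libraries, at 47.9% of the LACZ mean with sgRNA1 and 49.2% with sgRNA3. On the log2 scale VEGFA changed by -1.06 with sgRNA1 (SE 0.066, 95% interval -1.23 to -0.89, limma adjusted p = 0.0025) and -1.02 with sgRNA3 (95% interval -1.19 to -0.85, limma adjusted p = 0.00313). Both calls held without each library in turn (limma adjusted p = 0.00718 to 0.0326). The guides differed from each other by 0.04 (95% interval -0.13 to 0.21, limma adjusted p = 0.814).

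The other VEGF ligands were measured beside it. VEGFB, a ligand of FLT1, had 54.18 and 60.01 TPM with sgRNA1 and 51.74 and 47.89 TPM with sgRNA3, against 50 and 57.07 TPM in LACZ cells, and passed with neither guide. VEGFC, the ligand of FLT4 known for lymphatic vessel growth, was higher with sgRNA3, at 11.22 and 9.42 TPM, against 5.75 and 5.37 TPM in LACZ cells (log2 change 0.78, limma adjusted p = 0.0363). It had 8.65 and 7.52 TPM with sgRNA1, also above both LACZ libraries (log2 change 0.47, limma adjusted p = 0.123). Leaving out any 1 of the 6 libraries ended the VEGFC call with sgRNA3 (limma adjusted p = 0.0603 to 0.148). Summed over VEGFA, VEGFB, VEGFC, VEGFD and PGF, the ligands came to 373 ± 24.0 TPM with sgRNA1 and 375 ± 3.88 TPM with sgRNA3, against 699.82 ± 23.9 TPM in LACZ cells (SD, n = 2 each). VEGFA made up 82.1% ± 2.1 of that sum with sgRNA1 and 83.8% ± 0.886 with sgRNA3, against 91.3% ± 0.26 in LACZ cells. VEGFC made up 2.17% ± 0.0751 with sgRNA1 and 2.75% ± 0.311 with sgRNA3, against 0.796% ± 0.0655 in LACZ cells.

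The receptors of these ligands were mostly low in these cells. FLT1 did not exceed 0.01 TPM, FLT4 did not exceed 0.56 TPM and KDR, the main signalling receptor of VEGFA, did not exceed 1 TPM in any library. The co-receptor NRP1, which binds the longer VEGFA proteins, averaged 177 TPM over all libraries and NRP2 28.2 TPM, and neither passed with either guide. Of 5 tested genes of the VEGF list, 0 passed with sgRNA1 by limma (2 at an unadjusted p under 0.05) and 1, VEGFC, passed with sgRNA3. Over all tested genes, 6.0% passed with sgRNA1 and 9.08% with sgRNA3.

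PDGFB (ENSG00000100311, chromosome 22, 39223359 to 39244751, minus strand), whose protein pairs into a factor for fibroblasts and vessel-wall cells, was lower with both guides. It had 13.57 and 12.77 TPM with sgRNA1 and 10.70 and 11.10 TPM with sgRNA3, against 18.37 and 20.06 TPM in LACZ cells. The groups did not overlap, and the sgRNA3 libraries were the lowest. PDGFB had a log2 change of -0.51 with sgRNA1 (SE 0.097, 95% interval -0.76 to -0.27, limma adjusted p = 0.0465) and -0.76 with sgRNA3 (95% interval -1.01 to -0.52, limma adjusted p = 0.0153). The difference between the guides of -0.25 (95% interval -0.50 to -0.01) did not pass after adjustment (limma adjusted p = 0.316). Leaving out any 1 of the 6 libraries ended the sgRNA1 call (limma adjusted p = 0.0915 to 0.182), and so did median-of-ratios scaling and quantile normalization (limma adjusted p = 0.0531 and 0.0758). With sgRNA3 it was lost without LACZ replicate 1, LACZ replicate 2, sgRNA3 replicate 1 or sgRNA3 replicate 2 (limma adjusted p = 0.0711, 0.0888, 0.0847 and 0.0773).

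PDGFA (ENSG00000197461, chromosome 7, 497258 to 520296, minus strand), the other classical PDGF chain, was low and scattered. It had 3.70 and 2.35 TPM with sgRNA1 and 1.61 and 2.99 TPM with sgRNA3, against 3.94 and 4.41 TPM in LACZ cells. All 4 guide libraries were below both control libraries, but the guide replicates lay far apart. Its log2 changes were -0.38 with sgRNA1 (95% interval -1.11 to 0.35, limma adjusted p = 0.479) and -0.68 with sgRNA3 (95% interval -1.41 to 0.05, limma adjusted p = 0.204). PDGFC, a chain that is activated by proteolysis, was the most abundant PDGF ligand, at 26.1 TPM over all libraries, and did not pass with either guide (limma adjusted p = 0.259 and 0.387). PDGFC made up 56.9% ± 3.03 of the summed PDGF ligands with sgRNA1 and 62.3% ± 0.189 with sgRNA3, against 52.4% ± 2.6 in LACZ cells. PDGFB made up 30.4% ± 0.621 with sgRNA1 and 26.5% ± 1.33 with sgRNA3, against 35.8% ± 1.69 in LACZ cells (SD, n = 2 each). Of the 3 tested genes of the PDGF list, 0 passed by limma with either guide, also at an unadjusted p under 0.05, and the PDGF receptors PDGFRA and PDGFRB did not exceed 0.16 and 0.65 TPM in any library.

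MDK (ENSG00000110492, chromosome 11, 46380756 to 46383837, plus strand) encodes midkine, a heparin-binding cytokine found raised in many carcinomas, and it was lower with sgRNA3. It had 438.69 and 445.92 TPM with sgRNA1 and 323.52 and 331.96 TPM with sgRNA3, against 418.44 and 423.13 TPM in LACZ cells. The sgRNA3 libraries were the lowest of the 6 and the sgRNA1 libraries the highest. For sgRNA3 against LACZ it came to -0.36 on the log2 scale (SE 0.033, 95% interval -0.44 to -0.28, limma adjusted p = 0.00748), and for sgRNA1 against LACZ to 0.07 (95% interval -0.01 to 0.15, limma adjusted p = 0.257). The difference of sgRNA3 minus sgRNA1 was -0.43 (95% interval -0.51 to -0.35, limma adjusted p = 0.0189). The sgRNA3 call was lost without LACZ replicate 2 or sgRNA3 replicate 1 (limma adjusted p = 0.0559 and 0.0561), and without the intensity trend in the fit (SE 0.068, limma adjusted p = 0.0665), and the call between the guides was lost without any 1 library (limma adjusted p = 0.0634 to 0.101).

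PTN, the only other member of the midkine family, had 13.53 and 16.94 TPM with sgRNA1 and 14.24 and 16.19 TPM with sgRNA3, against 22.47 and 22.22 TPM in LACZ cells. Its log2 change was -0.53 with each guide and passed with neither (limma adjusted p = 0.0827 and 0.0708). Of all tested genes, 6.0% passed with sgRNA1 and 9.08% with sgRNA3. Among 6 tested genes of the midkine list, 0 passed with sgRNA1 by limma (2 at an unadjusted p under 0.05) and 1 with sgRNA3. That gene was NCL, which encodes nucleolin, an abundant nucleolar protein that also binds midkine at the cell surface. NCL had 471.82 and 429.45 TPM with sgRNA1 and 523.58 and 521.71 TPM with sgRNA3, against 407.08 and 412.76 TPM in LACZ cells. Its log2 change with sgRNA3 was 0.35 (limma adjusted p = 0.0215), a call that was lost without LACZ replicate 1, LACZ replicate 2, sgRNA3 replicate 1 or sgRNA3 replicate 2 (limma adjusted p = 0.0977 to 0.104). LRP8, a lipoprotein receptor of the list, averaged 21.2 TPM over all libraries and passed with neither guide.

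FGFBP1 (ENSG00000137440, chromosome 4, 15935569 to 15938740, minus strand), the secreted carrier whose promoter window is shown above, rose with sgRNA3 and not with sgRNA1. It had 64.60 and 59.02 TPM with sgRNA1 and 118.09 and 106.40 TPM with sgRNA3, against 60.47 and 56.36 TPM in LACZ cells. The sgRNA3 libraries stood above all others, and the sgRNA1 libraries overlapped the control. FGFBP1 had a log2 change of 0.93 with sgRNA3 (SE 0.081, 95% interval 0.72 to 1.13, limma adjusted p = 0.00652), or 1.92 times the LACZ mean. With sgRNA1 it was 0.08 (95% interval -0.13 to 0.28, limma adjusted p = 0.599). The sgRNA3 libraries averaged 1.82 times the sgRNA1 libraries, a log2 difference of 0.85 (95% interval 0.64 to 1.05, limma adjusted p = 0.0316). The call of sgRNA3 against LACZ held without each of the 6 libraries in turn (limma adjusted p = 0.0202 to 0.0498), and the call between the guides was lost without any 1 of them (limma adjusted p = 0.0848 to 0.152). FGFBP1 made up 7.47% ± 0.226 of the 5 secreted products with sgRNA1 and 14.6% ± 1.06 with sgRNA3, against 5.12% ± 0.353 in LACZ cells (SD, n = 2 each).

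FGFBP1 carries FGFs, and few FGF genes were measurable. Of 22 FGF genes, 13 stayed under 1 TPM in every library, 5 were tested and 0 passed by limma with either guide, where 1 had an unadjusted p under 0.05 with each. FGF2, the best known ligand that FGFBP1 carries, had 5.82 and 5.44 TPM with sgRNA1 and 8.52 and 8.47 TPM with sgRNA3, against 7.50 and 7.30 TPM in LACZ cells (limma adjusted p = 0.153 and 0.385). The intracellular factors FGF12 and FGF14, which do not act through FGF receptors, were at 41.37 and 81.84 TPM in sgRNA3 replicate 2 alone. Elsewhere FGF12 lay between 0.24 and 1.22 TPM and FGF14 between 0.36 and 0.76 TPM. Of all tested genes, 6.0% passed with sgRNA1 and 9.08% with sgRNA3. Of 5 tested co-receptors and binding proteins, 1 passed with sgRNA1 and 0 with sgRNA3 by limma, also at an unadjusted p under 0.05. It was SHISA2, whose relative Shisa holds FGF receptors inside the cell in Xenopus, at 38.33 and 36.55 TPM with sgRNA1, against 48.26 and 47.72 TPM in LACZ cells (log2 change -0.35, limma adjusted p = 0.0404). That call was lost without any 1 library (limma adjusted p = 0.0821 to 0.173). FGFRL1, an FGF receptor without a kinase domain, averaged 37.4 TPM over all libraries and FLRT3, a membrane protein that binds FGF receptors, 4.15 TPM, and neither passed.

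The FGF receptors transmit FGF signals through their kinase domains, and none of the 4 passed in any comparison by limma, where FGFR2 alone had an unadjusted p under 0.05, with each guide. FGFR1 (ENSG00000077782) was the most abundant, at 24.67 and 17.96 TPM with sgRNA1 and 22.75 and 19.95 TPM with sgRNA3, against 17.37 and 21.17 TPM in LACZ cells. The groups overlapped, with log2 changes of 0.13 with sgRNA1 (95% interval -0.33 to 0.59) and 0.14 with sgRNA3 (95% interval -0.31 to 0.60). FGFR4 (ENSG00000160867, chromosome 5, 177086886 to 177098144, plus strand), the receptor of FGF19, also overlapped, at 14.11 and 11.57 TPM with sgRNA1 and 15.35 and 12.21 TPM with sgRNA3, against 13.33 and 12.35 TPM in LACZ cells. Its log2 changes were -0.01 with sgRNA1 (95% interval -0.40 to 0.39) and 0.09 with sgRNA3 (95% interval -0.30 to 0.48).

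FGFR2 (ENSG00000066468, chromosome 10, 121478334 to 121598458, minus strand), whose epithelial isoform answers to ligands from the stroma, was below the control in every guide library. It had 5.52 and 5.25 TPM with sgRNA1 and 4.09 and 5.14 TPM with sgRNA3, against 7.03 and 7.84 TPM in LACZ cells. FGFR2 had a log2 change of -0.40 with sgRNA1 (95% interval -0.79 to -0.01, limma adjusted p = 0.197) and -0.59 with sgRNA3 (95% interval -0.99 to -0.20, limma adjusted p = 0.0781). FGFR3 (ENSG00000068078, chromosome 4, 1793293 to 1808872, plus strand), the lowest of the receptors, had 1.14 and 1.09 TPM with sgRNA1 and 0.65 and 1.05 TPM with sgRNA3, against 2.1 and 1.47 TPM in LACZ cells. Its log2 change was -0.39 with sgRNA1 (95% interval -1.03 to 0.26, limma adjusted p = 0.417) and -0.59 with sgRNA3 (95% interval -1.24 to 0.06, limma adjusted p = 0.21). At a level this close to 1 TPM the interval around the FGFR3 change spans values on both sides of 0.

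Together the 4 FGF receptors came to 40.7 ± 6.77 TPM with sgRNA1 and 40.6 ± 3.17 TPM with sgRNA3, against 41.3 ± 2.12 TPM in LACZ cells (SD, n = 2 each). The 4 guide libraries differed from the 2 LACZ libraries by -0.705 TPM (two-sided exact permutation p = 0.8). FGFR3 made up 2.45% ± 0.659 of the sum in the guide libraries (SD, n = 4) and 4.35% ± 1.3 in the LACZ libraries (SD, n = 2), with a two-sided exact permutation p of 0.0667, the smallest that 4 libraries against 2 allow. FGFR1 made up 52.2% ± 2.99 of the sum with sgRNA1 and 52.6% ± 0.766 with sgRNA3, against 46.5% ± 4.11 in LACZ cells. FGFR2 made up 13.4% ± 1.76 with sgRNA1 and 11.5% ± 2.73 with sgRNA3, against 18.0% ± 0.463 in LACZ cells. The shares of FGFR1 and FGFR2, like that of FGFR3, did not overlap between the guide libraries and the LACZ libraries. For FGFR1 and FGFR2 this was not tested. The table holds gene totals, so the isoforms of FGFR2 were not resolved. ESRP1, a splicing factor of the epithelial isoform, was lower with both guides (limma adjusted p = 0.021 and 0.0318). It had 45.16 and 42.80 TPM with sgRNA1 and 45.85 and 48.54 TPM with sgRNA3, against 61.72 and 60.28 TPM in LACZ cells. It was the only 1 of 4 tested splicing factors to pass, beside 2.90% of all tested genes that were lower with both guides. Its call with sgRNA1 held only without sgRNA3 replicate 1 (limma adjusted p = 0.0493 to 0.118 over the libraries left out) while that with sgRNA3 depended on each library (limma adjusted p = 0.0514 to 0.137 without 1 of them).

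**Figure D3:**
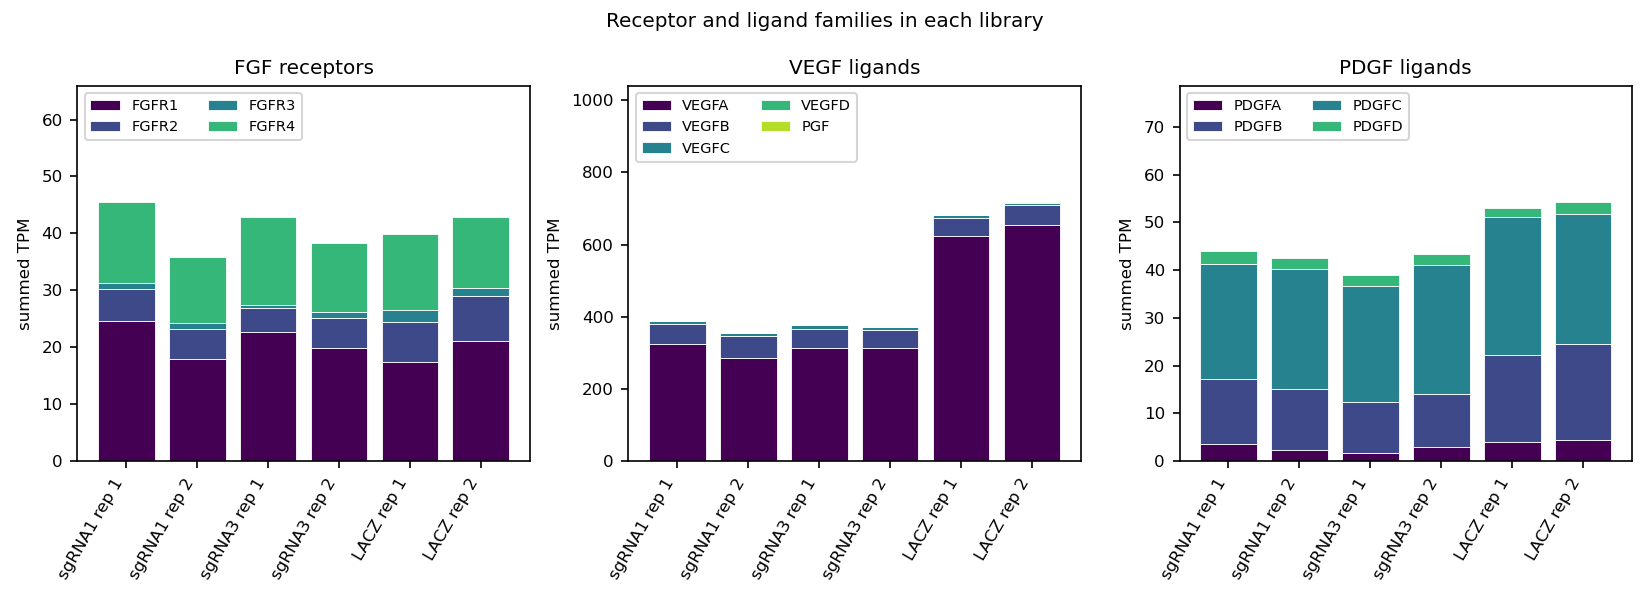
Summed TPM (vertical axes, from 0) of the FGF receptors, the VEGF ligands and the PDGF ligands in each library, with each gene's part of the bar in its own shade. The receptor sums lie between 35.87 and 45.44 TPM with no gap between groups, while the VEGF sums are between 355.76 and 389.64 TPM in the guide libraries and at 682.95 and 716.69 TPM in the LACZ libraries.

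Genes that FGF receptors and ERK induce, of which some restrain that signal, were lower in part. The list is called feedback genes here but also holds other targets, such as ETV1, ETV4, ETV5 and FLRT3. Of 12 tested feedback genes, 4 passed with sgRNA1 and 4 with sgRNA3, all lower, and 3 passed with both guides: DUSP6, SPRY2 and IER3. Over all tested genes, 4.31% were lower with sgRNA1, 5.25% with sgRNA3 and 2.90% with both. The median log2 change of the 12 was -0.40 with sgRNA1 and -0.38 with sgRNA3, against -0.07 and -0.05 over all tested genes. The list overlaps FGF and ERK targets whose fall was known when it was drawn up, so its direction is not independent evidence. DUSP6, a phosphatase of ERK, had 60.97 and 57.45 TPM with sgRNA1 and 61.93 and 57.90 TPM with sgRNA3, against 104.97 and 100.33 TPM in LACZ cells. Its log2 changes were -0.78 and -0.77 (limma adjusted p = 0.00555 and 0.00554). The sgRNA1 call of DUSP6 was lost without LACZ replicate 1 (limma adjusted p = 0.0553).

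SPRY2, a Sprouty inhibitor of receptor kinase signals, had 42.06 and 39.78 TPM with sgRNA1 and 51.50 and 49.86 TPM with sgRNA3, against 71.97 and 71.29 TPM in LACZ cells (log2 changes -0.79 and -0.49, limma adjusted p = 0.00391 and 0.0131). Its sgRNA3 call was lost without LACZ replicate 1, LACZ replicate 2, sgRNA3 replicate 1 or sgRNA3 replicate 2 (limma adjusted p = 0.0694 to 0.0803). IER3, an early response gene that acts on ERK, had 649.20 and 648.92 TPM with sgRNA1 and 748.64 and 738.61 TPM with sgRNA3, against 1260.69 and 1168.87 TPM in LACZ cells. IER3 changed by -0.90 and -0.71 on the log2 scale (limma adjusted p = 0.00117 and 0.00254), and both calls held without each library in turn (limma adjusted p at most 0.026). SPRY4 passed with sgRNA1 (log2 change -0.87, limma adjusted p = 0.0415) and SPRY1 with sgRNA3 (log2 change -0.72, limma adjusted p = 0.0332). Both of these calls were lost without any 1 library (limma adjusted p = 0.0702 to 0.164 and 0.0604 to 0.133). The adaptors and effectors that carry the signal inward are a separate list: of 13 tested, 0 passed by limma with either guide, where 2 had an unadjusted p under 0.05 with sgRNA1 and 4 with sgRNA3. The 3 most abundant of them were SHC1, PTPN11 and GRB2, at 124, 67.4 and 66.5 TPM over all libraries.

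MET (ENSG00000105976, chromosome 7, 116672390 to 116798386, plus strand), the HGF receptor, passed in no comparison. It had 157.89 and 144.50 TPM with sgRNA1 and 156.85 and 157.98 TPM with sgRNA3, against 162.82 and 158.14 TPM in LACZ cells. All guide libraries lay just below the control libraries. Its log2 change was -0.09 with sgRNA1 (95% interval -0.23 to 0.05, limma adjusted p = 0.398) and -0.03 with sgRNA3 (95% interval -0.17 to 0.11, limma adjusted p = 0.785). Its ligand HGF was listed at 0 in all 6 libraries. Of 10 tested genes of the HGF and MET list, 1 passed with sgRNA1, lower, and 3 with sgRNA3, 1 higher and 2 lower. Over all tested genes, 6.0% passed with sgRNA1 and 9.08% with sgRNA3.

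SPINT1, an inhibitor of the proteases that activate HGF, had 149.41 and 144.50 TPM with sgRNA1 and 150.05 and 147.67 TPM with sgRNA3, against 179.08 and 185.98 TPM in LACZ cells (limma adjusted p = 0.0226 and 0.0225). Its sgRNA1 call was lost without any 1 library (limma adjusted p = 0.0602 to 0.115), and its sgRNA3 call without any 1 of the LACZ and sgRNA3 libraries (limma adjusted p = 0.0831 to 0.111). CD44, a hyaluronan receptor that can present HGF to MET, had 390.08 and 371.51 TPM with sgRNA1 and 481.05 and 478.80 TPM with sgRNA3, against 366.25 and 393.75 TPM in LACZ cells. The log2 change of CD44 with sgRNA3 was 0.34 (limma adjusted p = 0.0209), and without any 1 of the LACZ and sgRNA3 libraries the call was lost (limma adjusted p = 0.056 to 0.104). PLXNB2, a semaphorin receptor that can associate with MET, was lower with sgRNA3 (log2 change -0.29, limma adjusted p = 0.0457), a call lost without any 1 library (limma adjusted p = 0.0719 to 0.175). The protease inhibitor SPINT2 was the most abundant gene of the list, at 496 TPM over all libraries, and passed with neither guide.

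Proteases free growth factors from their precursors or from the matrix. Of 7 tested, 1 passed with each guide, both lower, when 4.31% and 5.25% of all tested genes passed as lower with sgRNA1 and sgRNA3. PLAU, the urokinase that makes plasmin, had 1238.41 and 1199.52 TPM with sgRNA1 and 1583.82 and 1554.90 TPM with sgRNA3, against 1629.70 and 1652.29 TPM in LACZ cells. It was lower with sgRNA1 (log2 change -0.43, limma adjusted p = 0.00336), also without each library in turn (limma adjusted p = 0.0164 to 0.0347), but not without the intensity trend in the fit (limma adjusted p = 0.063). It differed between the guides by 0.36 (limma adjusted p = 0.019), a call that was lost without any 1 library (limma adjusted p = 0.0643 to 0.11). PLAT, the tissue-type activator, was lower with sgRNA3, at 750.59 and 738.96 TPM, against 976.70 and 989.08 TPM in LACZ cells (log2 change -0.40, limma adjusted p = 0.0101). Without any 1 of the LACZ and sgRNA3 libraries the PLAT call was lost (limma adjusted p = 0.0609 to 0.068). ADAM10, a membrane shedding protease, averaged 169 TPM over all libraries and passed with neither guide.

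VEGFA is a known target of hypoxia-inducible factors, and 15 other such targets were tested. With sgRNA1, 1 was higher and 3 were lower, and with sgRNA3, 1 was higher and 5 were lower, with medians of -0.16 and -0.37 on the log2 scale. Over all tested genes, 1.69% were higher and 4.31% lower with sgRNA1, and 3.84% were higher and 5.25% lower with sgRNA3. PGK1, a glycolytic kinase, had 503.98 and 489.03 TPM with sgRNA1 and 457.58 and 464.55 TPM with sgRNA3, against 638.98 and 637.64 TPM in LACZ cells (limma adjusted p = 0.00694 and 0.00333). NDRG1, a stress-response gene, had 12.34 and 13.62 TPM with sgRNA1 and 9.27 and 7.96 TPM with sgRNA3, against 20.05 and 21.52 TPM in LACZ cells (limma adjusted p = 0.0429 and 0.00903). PFKFB3, which controls the rate of glycolysis, went the other way, at 63.35 and 64.87 TPM with sgRNA1 and 52.35 and 56.59 TPM with sgRNA3, against 40.47 and 40.77 TPM in LACZ cells (limma adjusted p = 0.00877 and 0.0232). The glucose transporter SLC2A1, at 373 TPM over all libraries, passed with neither guide. Genes of the list thus passed in both directions.

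Leaving out single libraries ended many of the hypoxia calls. LDHA, lactate dehydrogenase, was lower with both guides (by limma, -0.16 at an adjusted p of 0.0383 and -0.15 at 0.0385), and both calls were lost without any 1 library (limma adjusted p = 0.0565 to 0.173). BNIP3, a mitochondrial receptor for autophagy, and P4HA1, a collagen-modifying enzyme, were lower with sgRNA3 (by limma, -0.44 at an adjusted p of 0.0395 and -0.37 at 0.034), and were lost without any 1 of the LACZ and sgRNA3 libraries (limma adjusted p up to 0.155). The PGK1 call with sgRNA1 was lost without LACZ replicate 1 or LACZ replicate 2 (limma adjusted p at most 0.0587), and the call with sgRNA3 held without each library. The NDRG1 call with sgRNA1 was lost without any 1 library (limma adjusted p = 0.0687 to 0.173), and with sgRNA3 without LACZ replicate 1, LACZ replicate 2 or sgRNA3 replicate 2 (limma adjusted p at most 0.0655). PFKFB3 was lost with sgRNA1 without any 1 of the LACZ and sgRNA1 libraries (limma adjusted p at most 0.0706) and with sgRNA3 without any 1 of the LACZ and sgRNA3 libraries (limma adjusted p at most 0.106).

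**Figure D4:**
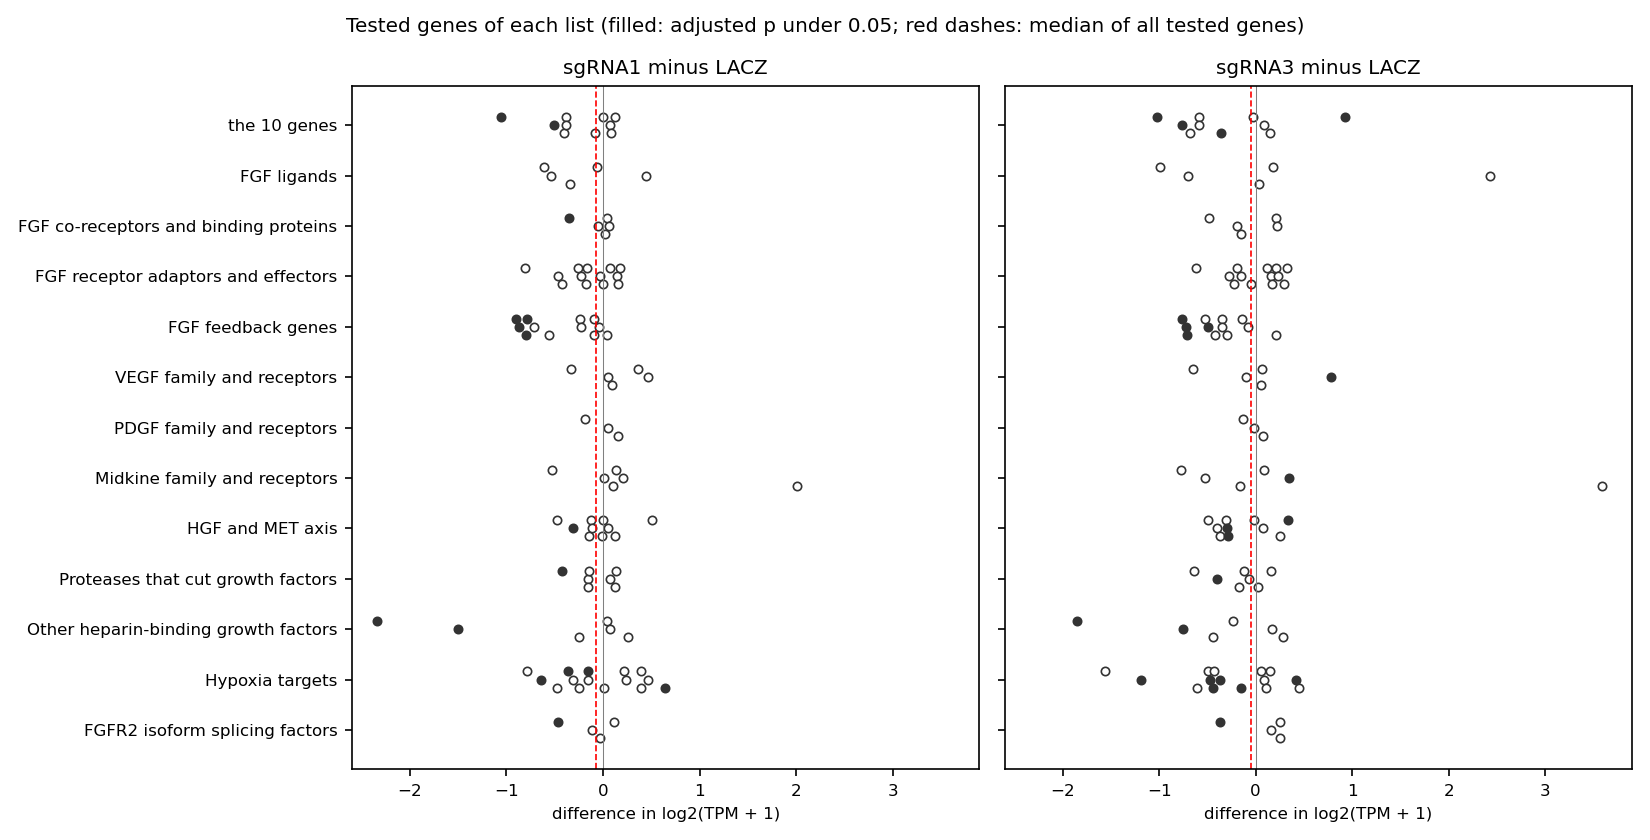
Difference in log2(TPM + 1) against LACZ (horizontal axes) of each tested gene of the 10 genes and of 12 related lists, with sgRNA1 left and sgRNA3 right; filled points have a limma adjusted p under 0.05 and the dashed line is the median of all tested genes. The feedback genes have filled points below 0 only, the hypoxia targets have them on both sides, and the receptor adaptors have none.

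Other growth factors with heparin-binding domains were tested in 6 cases, and HBEGF and AREG, ligands of the EGF receptor, were lower with both guides. Over all tested genes, 2.90% were lower with both. HBEGF had 48.49 and 46.80 TPM with sgRNA1 and 69.27 and 65.76 TPM with sgRNA3, against 251.25 and 239.78 TPM in LACZ cells (limma adjusted p = 0.000255 and 0.000714). AREG had 206.77 and 212.95 TPM with sgRNA1 and 345.28 and 360.13 TPM with sgRNA3, against 588.37 and 604.06 TPM in LACZ cells (limma adjusted p = 0.000288 and 0.00165). Between the guides, sgRNA3 minus sgRNA1, HBEGF differed by 0.49 and AREG by 0.75 (limma adjusted p = 0.042 and 0.0158). Without the intensity trend in the fit both of these calls were lost (limma adjusted p = 0.181 and 0.123). The HBEGF call between the guides was also lost without any 1 library, and the AREG call without any 1 library other than sgRNA3 replicate 1. The differences between the guides were 0.46 to 0.53 for HBEGF and 0.72 to 0.78 for AREG with a library left out. The other 4 tested, among them HDGF at 577 TPM over all libraries, passed with neither guide. Over the 90 tested genes of all 12 lists, each counted once, 1 was higher and 13 were lower with sgRNA1, and 4 were higher and 15 were lower with sgRNA3, with median log2 changes of -0.09 and -0.15. Those calls are 15.6% and 21.1% of them, beside 6.0% and 9.08% of all tested genes, whose medians were -0.07 and -0.05. The lists were chosen with earlier results of these data known, so these shares are not independent evidence.

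The deposited table annotates 6 of the 10 genes with heparin binding (VEGFA, MDK, FGFBP1, FGFR1, FGFR2 and FGFR4), and this list of the annotation was drawn up after values had been seen. Among the other 90 tested genes with the term, 4 were higher and 6 lower with sgRNA1, and 6 were higher and 9 lower with sgRNA3. Those are 11.1% and 16.7% of them, beside 6.0% and 9.08% of all tested genes. Their median log2 change was 0.02 with sgRNA1 and -0.10 with sgRNA3.

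The genes whose levels over the 6 libraries were most like those of the 4 genes that passed were found among 11400 tested genes with a mean of at least 5 TPM. Likeness was the root mean square difference between centred log2(TPM + 1) values, given here as a description. VEGFA was most like CARS, a cysteine tRNA synthetase, at 0.0375, then PDP1 at 0.0467 and MAFF at 0.0676, when VEGFA itself varied by 0.494 about its mean. CARS had 33.05 and 29.28 TPM with sgRNA1 and 34.44 and 33.31 TPM with sgRNA3, against 66.65 and 71.24 TPM in LACZ cells. PDGFB was most like CCDC191 at 0.0415, ZEB1-AS1 at 0.0496 and ZFP90 at 0.0542, with a variation of its own of 0.321. MDK was most like FAM210B at 0.0378, NAB2 at 0.0381 and GBP2 at 0.0400, with a variation of its own of 0.189. FGFBP1 was most like IFIT3, an interferon-induced gene, at 0.0639, then POU2F2 at 0.0655 and LRRN4 at 0.0714, with a variation of its own of 0.425. IFIT3 had 59.44 and 54.90 TPM with sgRNA1 and 102.57 and 97.92 TPM with sgRNA3, against 49.38 and 50.42 TPM in LACZ cells.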

How the data were processed

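Total RNA of 6 CFPAC-1 libraries was sequenced; per the labels' protocols, RNA was extracted with TRIzol and libraries followed Illumina protocols. The authors deposited TPM values per gene in 1 table, and the build GRCh38 and the tools RSEM 1.3.1, HISAT2 2.1.0 and DESeq2 1.24.0 come from the submitters' processing notes, without their roles. The sources used here give no annotation release, no strandedness and no rule for reads that paralogs share. TPM values keep no depth, so the depth is unknown and limits cannot be set by counting. Columns carry H1 and H3 where the titles carry S1 and S3, and were matched by guide and replicate number.

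GENCODE 29 held 58611 of 58884 Ensembl identifiers and gave the gene coordinates. From the deposited TPM, log2(TPM + 1) values of genes with a TPM of at least 1 in at least 2 libraries were fitted with limma 3.58.1 (R 4.3.3) in 3 groups with an intensity trend (3 residual and 2.34 prior degrees of freedom). Each comparison was adjusted by Benjamini-Hochberg over 16610 genes, two-sided, with a threshold of 0.05; the code was tested on simulated data. DESeq2 was not used, since TPM values are not counts. Sums over receptors were compared by an exact permutation test over libraries (Python 3.11.15, NumPy 2.4.6).

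All 10 genes and SULF2 were named. Per list, up to 5 genes that passed against LACZ and the 3 most abundant were named, and for each of the 10 that passed the 3 most alike genes; other names in the text were chosen after their values were seen. The 10 genes and the 12 lists of 134 genes were chosen with earlier results of these data known; the heparin binding list and the interferon-response motif were added after values had been seen. Replicate numbers did not pair the libraries.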

Additional observations from a re-analysis of the deposited data

Results flagged for a closer look

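Of the 10 genes, 2 differed between the guides by the limma test of the difference itself, and both were listed for that reason. MDK differed by -0.43 (sgRNA3 minus sgRNA1, log2 scale), with 323.52 and 331.96 TPM in the sgRNA3 libraries, against 438.69 and 445.92 TPM in the sgRNA1 libraries. FGFBP1 differed by 0.85, with 118.09 and 106.40 TPM in the sgRNA3 libraries, against 64.60 and 59.02 TPM in the sgRNA1 libraries. Neither call between the guides held when a library was left out, although the direction of both was the same each time. SULF2 itself differed between the guides by -0.14 and did not pass (limma adjusted p = 0.754).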

How the results depend on the processing

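The fall of VEGFA with both guides and the rise of FGFBP1 with sgRNA3 passed in all 16 alternatives. Over the 10 genes, the 3 comparisons and these alternatives, 416 values kept direction and side of the threshold, 40 kept only the direction and 18 changed sign; the cause was not tested. Of the 10 genes, 1 (VEGFA) passed with sgRNA1, and 1 with both guides, without the filter, under median-of-ratios scaling or quantile normalization, without mitochondrial transcripts, without the variance trend, with only the groups compared, and without any 1 library (1 to 1). With sgRNA3, 2 to 4 passed without a library. Between the guides 0 passed by limma without the filter, without the trend, with only the groups compared and without any 1 library (0 to 0), against 2 in the fit as reported and 3 at an unadjusted p under 0.05.

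Over all genes, sgRNA1, sgRNA3 and their difference gave 542, 785 and 0 calls without the filter, 295, 557 and 12 without the trend, 311, 833 and 2 with only the groups compared, and 163 to 464, 242 to 967 and 0 to 29 without a library. Higher against lower calls were 281 to 716 with sgRNA1 and 637 to 872 with sgRNA3 as reported, and 610 to 578 and 1020 to 806 under median-of-ratios scaling and 442 to 560 and 776 to 808 under quantile normalization. Between the guides they were 65 to 31, 57 to 46 and 55 to 44 in the same settings. No setting moved the median of all genes by over 0.0865.

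Replicate numbers did not pair the libraries (correlations of replicate differences -0.0179, 0.00611 and -0.0314). With a replicate block, 1, 4 and 0 of the 10 genes and 377, 561 and 0 of all genes passed for sgRNA1, sgRNA3 and their difference, and 1 of the 10 passed with both guides; SULF2 stayed at -1.09 and -1.23 but no longer passed (limma adjusted p = 0.0819 and 0.0583). The SULF2 call was also lost with sgRNA1 without the filter, without the trend or with only the groups compared (log2 change -1.09) and under quantile normalization (-0.99), and with sgRNA3 without the filter or the trend (-1.23). Without a library SULF2 lay between -1.33 and -0.86 with sgRNA1 and between -1.33 and -1.14 with sgRNA3, and lost its call in 5 and 4 of the 6 cases. Of the 46 calls of the 10 genes, SULF2 and the genes of the 12 lists, 30 were lost without the trend, 10 of 17 with sgRNA1, 15 of 24 with sgRNA3 and 5 of 5 between the guides.

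Sign changes were all of changes that did not pass. FGFR1 with sgRNA1 ranged from -0.090 to 0.35 without a library (-0.0071 without LACZ replicate 1), and between the guides from -0.20 to 0.23 (-0.075 without sgRNA3 replicate 1), -0.017 under median-of-ratios scaling and -0.031 under quantile normalization. FGFR4 with sgRNA1 ranged from -0.14 to 0.13 without a library (0.046 without LACZ replicate 1), and came to 0.072 under median-of-ratios scaling, 0.12 under quantile normalization and 0.0015 without mitochondrial transcripts. FGFR4 with sgRNA3 ranged from -0.066 to 0.24, and between the guides from -0.061 to 0.25 (-0.040 without sgRNA1 replicate 2). MET with sgRNA3 came to 0.022 under median-of-ratios scaling, and between the guides ranged from -0.0043 to 0.12. Between the guides VEGFA ranged from -0.050 to 0.13, PDGFA from -0.60 to 0.0080 and SULF2 from -0.38 to 0.093. The summed FGF receptors differed by 1.13 TPM under median-of-ratios scaling, and by -2.31 to 0.88 TPM without a library (above 0 without sgRNA1 replicate 2, sgRNA3 replicate 2 or LACZ replicate 2); the FGFR3 share differed by -2.82 to -0.981 percentage points. With 2 libraries a group and unknown depth, the intervals of PDGFA and FGFR3 span 0 in every comparison.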

Other observations

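ALK, a receptor for midkine, had 12.02 and 0.61 TPM with sgRNA1 and 4.78 and 31.08 TPM with sgRNA3, against 0.25 and 0.03 TPM in LACZ cells. The replicates of each guide lay far apart, and ALK did not pass with either guide (limma adjusted p = 0.372 and 0.131). It was highest in sgRNA3 replicate 2, the library in which FGF12 and FGF14 were also high. FGF19, a ligand of FGFR4, had 1.15 and 1.04 TPM with sgRNA1 and 0.67 and 0.40 TPM with sgRNA3, against 1.83 and 2.26 TPM in LACZ cells, and passed with neither guide (limma adjusted p = 0.251 and 0.0668). These genes were chosen after their values were seen.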
